A study of Mus musculus with 9 samples.

Results

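The transcripts of 10 genes of matrix turnover were followed in the left ventricle of the mouse, namely 6 matrix metalloproteinases (*Mmp2*, *Mmp3*, *Mmp9*, *Mmp12*, *Mmp14* and *Mmp27*) and the 4 tissue inhibitors that block them (*Timp1*, *Timp2*, *Timp3* and *Timp4*). They were read by gene symbol from a table of 52636 genes in 9 libraries, and all 10 were among the 16322 genes that passed the filter on low counts. The libraries came from mice of the C57BL6J background aged 16 weeks, and their genotype labels are WT for libraries 1 to 5 and KO for libraries 6 to 9. The KO mice carried floxed *Vdac2* alleles and a Cre driven by the αMHC promoter, which is active in ventricular myocytes, so the other cells of these hearts keep the gene. The WT mice were littermates with either the floxed allele or the Cre, and which of these each library carried is not given in the sources used here. The study asked what loss of VDAC2, a pore of the outer mitochondrial membrane, does to the heart, and RNA from a transmural sample of the left ventricle was sequenced after removal of ribosomal RNA.

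Matrix metalloproteinases are zinc-dependent enzymes that are made as inactive proenzymes and cut collagens, gelatin, elastin, proteoglycans and other proteins outside the cell. Tissue inhibitors of metalloproteinases bind the active site of the mature enzymes, and TIMP2 also takes part in the activation of MMP2 at the cell surface by MMP14. In the heart these genes are known for their part in the turnover of the collagen network during dilatation and fibrosis, and fibroblasts, macrophages and myocytes each make some of them.

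The targeted gene did not follow the labels. *Vdac2* (ENSMUSG00000021771, chr14:21825238-21845879, GRCm38) was at 20.2, 366.5, 58.5, 365 and 21.3 CPM, read counts scaled by library size, in the libraries labelled WT, 1 to 5 in order, and at 384, 20.5, 421 and 19.1 CPM in those labelled KO, 6 to 9. The libraries were therefore grouped by measured *Vdac2*: libraries 1, 5, 7 and 9, under 100 CPM, are called *Vdac2*-low, libraries 2, 4, 6 and 8, over 300 CPM, are called *Vdac2*-high, and library 3 is shown apart. No library lay between the thresholds, and the values nearest to them were 58.5 CPM in library 3 and 365 CPM in library 4. Because measured values chose these groups, and because the genes were picked with results on these libraries known, differences by *Vdac2* level are given as descriptions without a test, and no library is renamed WT or KO. Each *Vdac2* group holds 2 libraries of each label, so the differences of the members are also given within the labels.

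Library totals ran from 27345052 to 32469135 counts under the label WT and from 36477141 to 44673988 under KO, so that 3 counts, the lowest level taken as shown, stood for 0.0693 to 0.114 CPM. All libraries labelled WT were run in lane 1 and all labelled KO in lane 2, and *Xist* was at most 0.152 CPM in the first and at least 335 CPM in the second. Label, lane and sex therefore cannot be told apart. The markers of cardiomyocytes were high in 8 libraries, at a summed 46360 to 63740 CPM over 6 genes, and lower in library 3, at 13110 CPM, where mitochondrially encoded genes took 9.07% of counts against 16.8% to 19.2% elsewhere. Of 4 atrial genes, *Sln* was at or under 0.0588 CPM in every library and *Bmp10* at or under 0.214 CPM. *Myl7* reached at most 1.13 CPM and *Myl4* at most 2.99 CPM. Their levels by *Vdac2* group are given with the other markers. The study left out 1 WT sample for RNA quality without naming it.

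Per kilobase of exon, the scale on which different genes can be compared, *Timp3* was the most abundant of the 10 transcripts in the 8 libraries other than library 3, with a median level of 23.4 CPM per kb. *Mmp2* followed at 17.1, *Timp2* at 13.4, *Timp4* at 8.71, *Timp1* at 4.11, *Mmp3* at 2.61, *Mmp14* at 1.54, *Mmp9* at 0.419, *Mmp12* at 0.210 and *Mmp27* at 0.192 CPM per kb. In this order the ranges of neighbouring genes overlapped over the 8 libraries, except for *Mmp14* (1.24 to 2.17 CPM per kb) and *Mmp9* (0.300 to 0.974). On this scale the summed level of the 4 inhibitors was 44.0 to 61.3 CPM per kb and that of the 6 enzymes 18.2 to 32.4. Other metalloproteinases, such as *Mmp15*, are not in this enzyme sum. Without division by length, *Mmp15* was at 38.9 to 56.9 CPM, beside a sum of 63.75 to 101.4 CPM for the 6 enzymes.

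In the *Vdac2*-low libraries, the transcript that stood clear of all *Vdac2*-high libraries was *Timp1*, with a median level 5.82 times as high. It was the only member of the 10 whose 4 *Vdac2*-low values lay above all 4 *Vdac2*-high values, and no member lay below them. Over all 16322 genes, 7.16% lay above and 4.93% below in the same way. When the comparison was made inside each label, 2 libraries against 2, *Timp1*, *Timp2*, *Mmp3*, *Mmp12* and *Mmp27* were higher in the *Vdac2*-low libraries in both labels, which is 5 of 10 members against 11.3% of all genes. None of the members was lower in both labels, against 8.58% of all genes. The genes were chosen with this contrast known, so nothing is read from these shares.

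The count of members standing clear moved with single libraries. It stayed at 1, *Timp1*, without library 5, 6 or 8. With a library left out there are fewer values to separate, and 8.77% to 9.91% of all genes then stood above and 6.11% to 8.3% below. It was 2 without library 1, where *Timp4* was added as lower, and 2 without library 2, where *Mmp12* was added. It was 3 without library 4 (*Mmp9* and *Timp2* added), library 7 (*Mmp3* and *Mmp12* added) or library 9 (*Mmp2* and *Timp2* added). *Timp1* stood clear in each of these counts. Within a single label, where 2 libraries face 2, 7 members stood above and none below in the libraries labelled WT, beside 24.5% and 23.3% of all genes, and 6 stood above and 1, *Timp4*, below in those labelled KO, beside 20.7% and 17.1%.

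**Figure D1:**
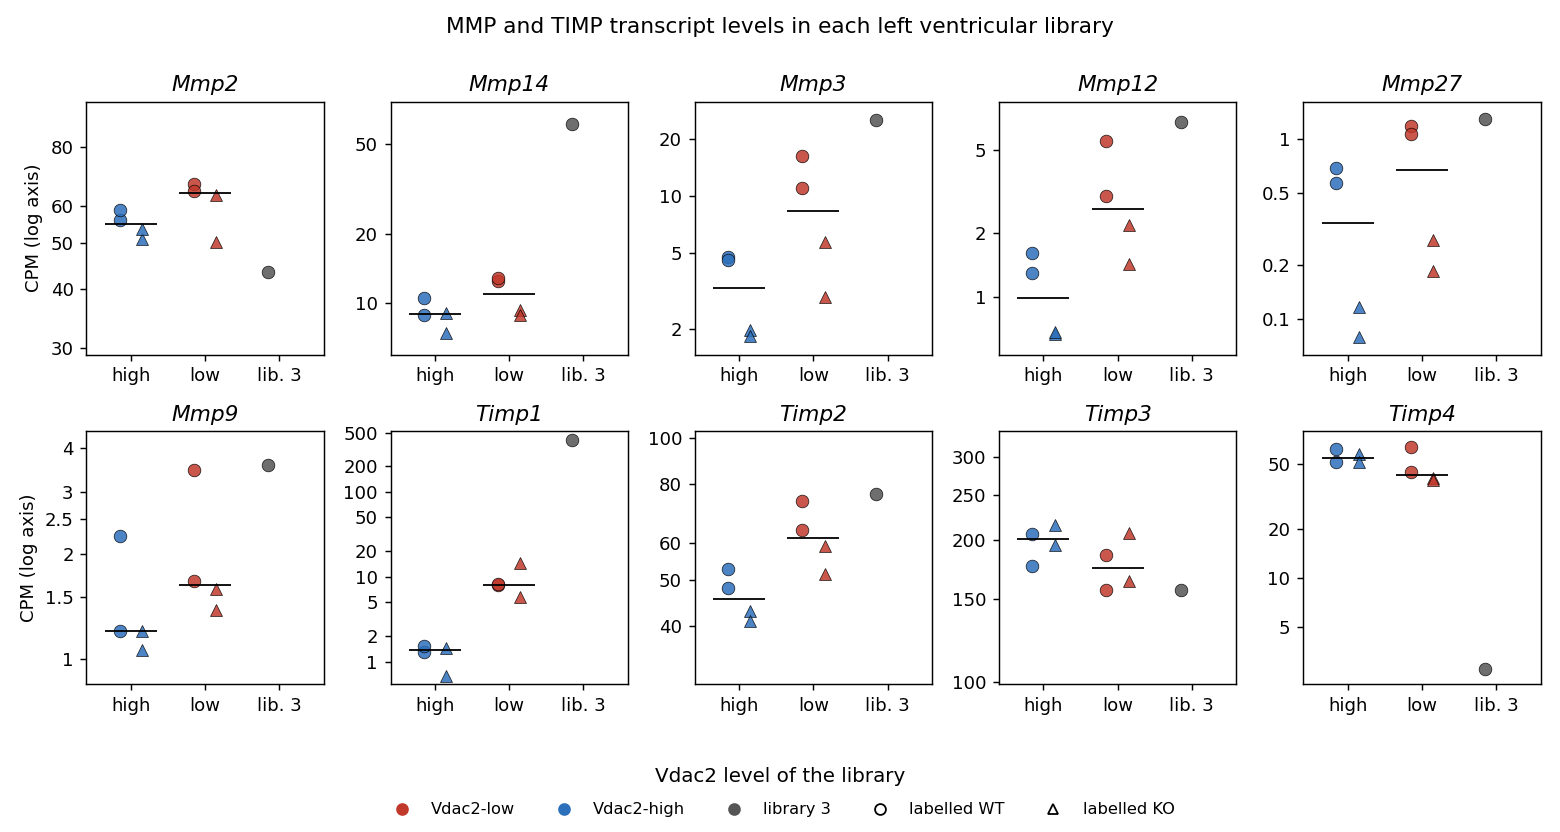
Each panel plots 1 gene, with its level in CPM on a log axis for every library, grouped by Vdac2 level, and the horizontal line marks the median of 4 libraries. Circles are labelled WT and triangles labelled KO. The Timp1 values of the Vdac2-low libraries, 5.77 to 14.7 CPM, lie above the Vdac2-high values, 0.677 to 1.52 CPM, and library 3 lies at 413 CPM.

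The gelatinase pathway at the cell surface was represented by *Mmp2* (ENSMUSG00000031740, chr8:92827291-92853420, plus strand), which encodes gelatinase A, and by *Mmp14* (ENSMUSG00000000957, chr14:54431612-54445364, plus strand), which encodes the membrane-bound MT1-MMP that activates it. *Mmp2* was at 66.7, 64.6, 63.2 and 50.25 CPM in *Vdac2*-low libraries 1, 5, 7 and 9 and at 56.1, 58.9, 51.0 and 53.7 CPM in *Vdac2*-high libraries 2, 4, 6 and 8. Library 9 was the lowest of these 8, so the groups overlapped, and the ratio of the medians was 1.16. Within the labels the ratio was 1.14 in the libraries labelled WT, whose groups did not overlap, and 1.08 in those labelled KO, whose groups did. In library 3 *Mmp2* was at 43.4 CPM, below every other library.

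*Mmp14* was at 12.5, 12.9, 9.36 and 8.82 CPM in *Vdac2*-low libraries 1, 5, 7 and 9 and at 8.81, 10.5, 8.99 and 7.41 CPM in *Vdac2*-high libraries 2, 4, 6 and 8. The *Vdac2*-low libraries labelled WT stood above the *Vdac2*-high ones, with a ratio of medians of 1.31, but those labelled KO overlapped, with 1.11, and the ratio over all 8 was 1.23. Library 3 stood apart with 61.3 CPM, 6.88 times the *Vdac2*-high median. *Mmp14* lies on the same chromosome as *Vdac2*, 32.6 Mb away.

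*Mmp9* (ENSMUSG00000017737, chr2:164940780-164955850, plus strand) encodes gelatinase B, a product of neutrophils and macrophages among other cells. Its level was low, at 1.67, 3.45, 1.58 and 1.39 CPM in *Vdac2*-low libraries 1, 5, 7 and 9 and at 1.21, 2.25, 1.06 and 1.21 CPM in *Vdac2*-high libraries 2, 4, 6 and 8. The groups overlapped through library 4, and the medians differed by a ratio of 1.35. Within the labels the ratio was 1.48 in the libraries labelled WT, whose groups overlapped, and 1.31 in those labelled KO, whose groups did not. Library 5 was the highest of these 8 and also had the highest sum of neutrophil markers, 25.6 CPM against 1.41 to 4.603 CPM in the other 7. In library 3 *Mmp9* was slightly higher still, at 3.56 CPM, with a lower neutrophil sum of 11.19 CPM. The part of neutrophils in the *Mmp9* level was not tested.

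*Mmp12*, *Mmp3* and *Mmp27* lie within 237.5 kb of each other in the metalloproteinase cluster of chromosome 9. *Mmp12* (ENSMUSG00000049723, chr9:7344381-7369499) encodes macrophage elastase, *Mmp3* (ENSMUSG00000043613, chr9:7445822-7455975) encodes stromelysin-1, which cuts proteoglycans and fibronectin and activates other proenzymes, and *Mmp27* (ENSMUSG00000070323, chr9:7571396-7581885) encodes a little-studied stromelysin-related enzyme. All are on the plus strand. The values of these metalloproteinases were higher in the *Vdac2*-low libraries of both labels, those of *Mmp27* from few counts under the label KO, and the 250 bases before their start sites are compared here with those of *Timp1* because its values were higher in the same libraries. The sequences are from RefSeq on GRCm38.p6, read 5′ to 3′ on the plus strand, at chr9:7445572-7445821 for *Mmp3*, at chr9:7347124-7347373 for a second start site of *Mmp12* that lies in an intron of the GENCODE transcripts from the first start, at chr9:7571146-7571395 for *Mmp27* and at chrX:20869916-20870165 for *Timp1*. RefSeq promoter entries matched 8 of the 10 genes, *Mmp2* and *Mmp9* being the others. Capitals mark the AP-1 motif TGANTCA and the TATA motif TATAAA, and the PEA3 motif AGGAAG was searched as well, each on both strands.
*Mmp3*: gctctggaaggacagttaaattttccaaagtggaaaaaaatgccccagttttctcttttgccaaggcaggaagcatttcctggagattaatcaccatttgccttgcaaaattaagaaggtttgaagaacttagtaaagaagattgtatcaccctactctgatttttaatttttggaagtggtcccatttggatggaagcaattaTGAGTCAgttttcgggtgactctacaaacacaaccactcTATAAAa
*Mmp12*, second start: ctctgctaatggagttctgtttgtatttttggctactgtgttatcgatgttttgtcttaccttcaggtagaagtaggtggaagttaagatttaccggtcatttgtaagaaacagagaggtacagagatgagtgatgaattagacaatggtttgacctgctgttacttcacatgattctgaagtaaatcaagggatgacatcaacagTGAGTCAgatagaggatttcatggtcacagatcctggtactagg
*Mmp27*: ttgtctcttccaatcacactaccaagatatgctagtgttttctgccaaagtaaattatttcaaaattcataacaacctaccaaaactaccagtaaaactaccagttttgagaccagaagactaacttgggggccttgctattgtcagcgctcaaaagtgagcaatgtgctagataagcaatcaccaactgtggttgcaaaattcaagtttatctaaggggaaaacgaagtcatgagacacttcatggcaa
*Timp1*: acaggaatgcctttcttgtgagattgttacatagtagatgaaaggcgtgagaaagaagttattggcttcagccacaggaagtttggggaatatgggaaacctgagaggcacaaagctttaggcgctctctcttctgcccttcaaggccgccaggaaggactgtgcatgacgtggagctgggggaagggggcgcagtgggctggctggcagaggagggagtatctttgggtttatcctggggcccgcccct
The AP-1 motif began 46 bases before the start of *Mmp3* and 44 bases before the second start of *Mmp12*, and the TATA motif began 7 bases before the start of *Mmp3*. Neither motif was found in the windows of *Mmp27*, *Timp1*, *Mmp14*, *Timp2*, *Timp3*, *Timp4* or the first start of *Mmp12*. Of 32851 RefSeq windows of this length, 6.75% held the AP-1 letters and 12.4% the TATA letters. The PEA3 letters occurred 2 times in the window of *Timp1* and also in those of *Mmp3*, *Mmp14*, *Timp3*, *Timp4* and the first start of *Mmp12*, and in 29.5% of all windows. A match describes the letters only, and no binding was measured.

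*Mmp3* was at 16.3, 11.1, 2.95 and 5.70 CPM in *Vdac2*-low libraries 1, 5, 7 and 9 and at 4.79, 4.603, 1.96 and 1.82 CPM in *Vdac2*-high libraries 2, 4, 6 and 8. Each *Vdac2*-low library was above both *Vdac2*-high libraries of its own label, with a ratio of medians of 2.92 in the libraries labelled WT and 2.29 in those labelled KO. Over all 8 libraries the groups overlapped, because library 7, labelled KO and *Vdac2*-low, was below libraries 2 and 4, labelled WT and *Vdac2*-high. Library 3 had the highest level, 25.3 CPM.

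*Mmp12* was at 3.02, 5.49, 1.42 and 2.19 CPM in *Vdac2*-low libraries 1, 5, 7 and 9 and at 1.61, 1.29, 0.663 and 0.677 CPM in *Vdac2*-high libraries 2, 4, 6 and 8. The overlap of the groups came from library 7 lying below library 2, and within the labels the medians differed by ratios of 2.93 (WT) and 2.7 (KO). Library 3 was again highest, at 6.77 CPM. The antisense overlap of *Mmp12* with *Mmp1b* covers 157 exon bases, and *Mmp1b* had at most 1 count in any library.

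*Mmp27* was the scarcest of the 10, at 1.18, 1.07, 0.185 and 0.277 CPM in *Vdac2*-low libraries 1, 5, 7 and 9 and at 0.695, 0.571, 0.0796 and 0.118 CPM in *Vdac2*-high libraries 2, 4, 6 and 8. The libraries labelled KO held only 3, 7, 4 and 12 counts, in the order 6 to 9. Pooled over the 2 libraries of each kind, the ratio of *Vdac2*-low to *Vdac2*-high was 1.77 in those labelled WT, from 71 against 34 counts, and 2.40 in those labelled KO, from only 19 against 7 counts. *Mmp27* separated the labels more than the *Vdac2* groups, so its ratio over all 8 libraries, 1.95, was unstable. On the log2 scale this difference was 0.97, and it was -0.31 without library 1 or library 5 and 2.51 without library 2 or library 4.

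Other members of the same cluster were scarce and did not follow one pattern. *Mmp13*, a collagenase, was at 0.762 to 1.22 CPM in the *Vdac2*-low and 1.02 to 1.79 CPM in the *Vdac2*-high libraries. *Mmp8*, the neutrophil collagenase, was at 0.237 to 1.28 CPM in the *Vdac2*-low and 0.0588 to 0.190 CPM in the *Vdac2*-high libraries, did not pass the filter, and reached 2.08 CPM in library 3. *Mmp10* had at most 5 counts in any library.

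Among the inhibitors, *Timp1* (ENSMUSG00000001131, chrX:20870166-20874735, plus strand) encodes the soluble, inducible inhibitor. It was at 7.98, 8.18, 5.77 and 14.7 CPM in *Vdac2*-low libraries 1, 5, 7 and 9 and at 1.32, 1.52, 1.46 and 0.677 CPM in *Vdac2*-high libraries 2, 4, 6 and 8. The lowest *Vdac2*-low library was 3.79 times the highest *Vdac2*-high library, and the ratio of medians was 5.69 in the libraries labelled WT and 9.57 in those labelled KO. In library 3 it reached 413 CPM from 15314 counts, which is 298 times the *Vdac2*-high median. *Timp1* lies inside *Syn1* on the opposite strand without shared exon bases, and *Syn1* had at most 12 counts in any library.

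*Timp2* (ENSMUSG00000017466, chr11:118301069-118355740, minus strand), the inhibitor that also assists activation of MMP2, was at 73.5, 63.8, 59.2 and 51.5 CPM in *Vdac2*-low libraries 1, 5, 7 and 9 and at 48.1, 52.9, 43.1 and 40.9 CPM in *Vdac2*-high libraries 2, 4, 6 and 8. The groups overlapped only through library 9, which was 0.973 times library 4, and the ratio of medians was 1.36 in the libraries labelled WT and 1.32 in those labelled KO. This was a smaller difference than that of *Timp1*, but from 1315 counts or more in each library. Library 3 was highest, at 76.0 CPM.

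*Timp3* (ENSMUSG00000020044, chr10:86300372-86349506, plus strand) encodes the inhibitor bound to the matrix. It was at 186, 157, 207 and 164 CPM in *Vdac2*-low libraries 1, 5, 7 and 9 and at 206, 176, 215 and 196 CPM in *Vdac2*-high libraries 2, 4, 6 and 8. The groups overlapped in both labels, and the ratio of medians was 0.871, with 0.897 in the libraries labelled WT and 0.904 in those labelled KO. The gene shares 1733 exon bases with *Syn3* on the opposite strand, and *Syn3* was at 0.216 to 0.989 CPM.

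*Timp4* (ENSMUSG00000030317, chr6:115241892-115252205, minus strand) encodes the inhibitor that is most typical of the heart. It was at 63.0, 44.7, 40.7 and 39.8 CPM in *Vdac2*-low libraries 1, 5, 7 and 9 and at 61.4, 51.4, 56.9 and 51.3 CPM in *Vdac2*-high libraries 2, 4, 6 and 8. Library 1 was the highest of these 8 while the other *Vdac2*-low libraries were below every *Vdac2*-high library, and the ratio of medians was 0.788. The libraries labelled KO did not overlap, with a ratio of 0.744, whereas those labelled WT did, with 0.954. Library 3 held only 2.78 CPM, 19.5 times less than the *Vdac2*-high median. *Timp4* shares 90 exon bases with *Syn2* on the opposite strand, and *Syn2* was at 2.54 to 4.83 CPM.

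**Figure D2:**
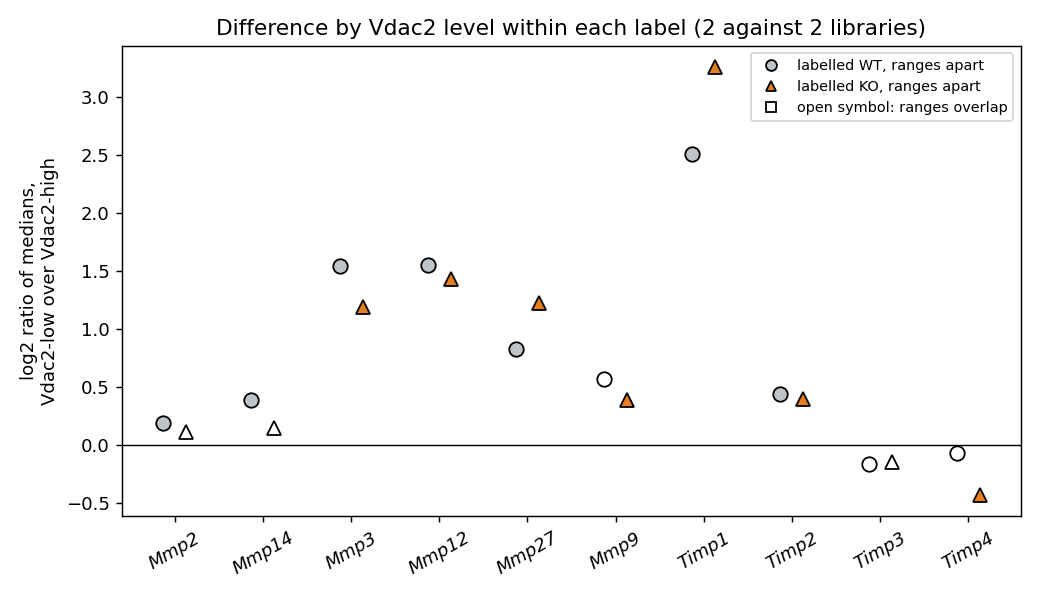
The vertical axis gives the log2 ratio of the median level in Vdac2-low over Vdac2-high libraries, for 2 against 2 libraries labelled WT (circles) and 2 against 2 labelled KO (triangles), and filled symbols mark genes whose ranges did not overlap. Timp1 has the largest values, 2.51 and 3.26, and Mmp3, Mmp12, Mmp27 and Timp2 are filled in both labels.

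Over the 10 members the median difference between *Vdac2*-low and *Vdac2*-high libraries was 0.43 on the log2 scale, with 0.70 for the 6 metalloproteinases and 0.12 for the 4 inhibitors, beside 0.0050 for all 16322 genes. The median of the metalloproteinases moved with single libraries, from 0.30 without library 1 or 5 to 1.19 without library 2 or 4, and was 0.37 without library 6, 0.36 without library 8 and 1.05 without library 7 or 9. That of the inhibitors ran from 0.042 without library 1 to 0.19 without library 9, with 0.059 without library 8 and 0.18 without library 2. Within labels the median of the members was 0.51 (WT) and 0.39 (KO). These medians describe genes chosen with the contrast known. The inhibitors pointed both ways, *Timp1* and *Timp2* having ratios over 1 and *Timp3* and *Timp4* ratios under 1.

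The makeup of the inhibitor transcripts accordingly differed between the groups. As a share of the summed CPM per kb of the 4 inhibitors, *Timp1* took 12.03% to 29.2% in the *Vdac2*-low and 1.73% to 3.76% in the *Vdac2*-high libraries. *Timp3* took 35.6% to 47.1% in the *Vdac2*-low and 47.4% to 54.6% in the *Vdac2*-high libraries, and *Timp4* took 11.9% to 17.4% and 19.1% to 21.0%. None of these 3 genes' shares overlapped between the groups, whereas the share of *Timp2*, 23.3% to 31.2% against 22.7% to 29.7%, did. The summed inhibitor level was 52.4 to 61.3 CPM per kb in the *Vdac2*-low and 44.0 to 49.6 in the *Vdac2*-high libraries, but in plain CPM the sums overlapped, at 269.9 to 330.1 against 282 to 316.9 CPM. Shares add to the whole, so a higher share of *Timp1* lowers the others. Division by exon length weighs heavily on these shares, since *Timp1* has 888 exon bases and *Timp3* has 8144. As shares of CPM without it, *Timp1* took 1.85% to 5.43% in the *Vdac2*-low and 0.235% to 0.540% in the *Vdac2*-high libraries, still apart. The ranges then overlapped for *Timp3* (56.3% to 66.2% against 62.5% to 67.95%) and *Timp4* (13% to 19.1% against 17.8% to 19.4%) and were apart for *Timp2* (18.9% to 23.3% against 13.6% to 18.75%). Only the separation of *Timp1* therefore held on both scales.

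Among the enzymes, *Mmp2* made up 61.2% to 82.6% of the summed CPM per kb in the *Vdac2*-low libraries and 76.4% to 85.3% in the *Vdac2*-high libraries. *Mmp3* took 7.23% to 28.0% and 5.43% to 12.3%, and *Mmp14* took 6.47% to 7.29% and 6.67% to 8.31%. All of these ranges overlapped between the *Vdac2* groups. *Mmp3* exceeded *Mmp14* in these libraries except *Vdac2*-high libraries 6 and 8, where *Mmp14* was the larger. As shares of CPM without division by length, *Mmp14* exceeded *Mmp3* in each of them except library 1 (12.3% against 16.1%). The summed enzyme level was 20.4 to 32.4 CPM per kb in the *Vdac2*-low and 18.2 to 22.9 in the *Vdac2*-high libraries.

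Library 3 had a makeup of its own. *Timp1* took 92.2% of its inhibitor transcripts per kb, with 3.87% for *Timp2*, 3.81% for *Timp3* and 0.0935% for *Timp4*. Its enzyme transcripts were spread over *Mmp3* with 35.4%, *Mmp2* with 32.4% and *Mmp14* with 25.9%. Without division by length, *Mmp14* took 43.3%, *Mmp2* 30.7% and *Mmp3* 17.9% of its enzyme CPM, and *Timp1* took 63.7% of its inhibitor CPM. The summed inhibitor level was 504.3 CPM per kb, and the summed enzyme level was 39.7. Counted with the *Vdac2*-low libraries, library 3 left *Timp1* as the only member standing clear of the *Vdac2*-high libraries, beside 5.98% of all genes above and 4.41% below.

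**Figure D3:**
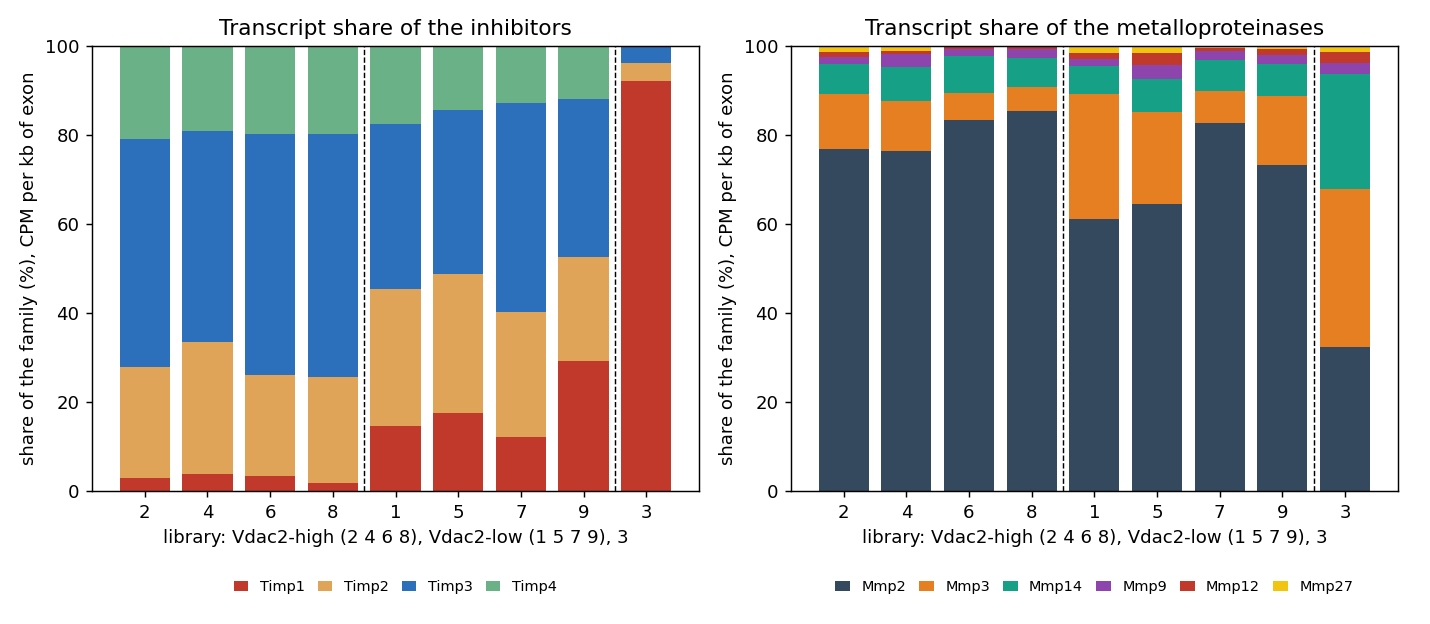
Stacked bars give, for each library, the share of each gene in the summed CPM per kb of exon of the 4 inhibitors (left) and the 6 metalloproteinases (right), and dashed lines part Vdac2-high, Vdac2-low and library 3. The red Timp1 share is 12.03% or more in each Vdac2-low library, 3.76% or less in each Vdac2-high library and 92.2% in library 3.

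Between the deposited labels, none of the 10 members passed the test. By the quasi-likelihood test of edgeR, with p adjusted by Benjamini-Hochberg over 16322 genes, 9 genes (0.0551%) had an adjusted p under 0.05 and none was a member, while 997 genes and 4 members, *Mmp27*, *Mmp3*, *Mmp9* and *Mmp12*, had an unadjusted p under 0.05. The lowest adjusted p of a member was 0.159, for *Mmp27*. DESeq2 called 63 genes, and *Mmp27* was the only member among them, with an adjusted p of 3.24e-05, whereas it gave no p for *Mmp14* and *Timp1*. The members' median log2 fold change, labelled KO over labelled WT, was -1.09, beside -0.018 for all genes tested, and 8 of 10 were negative, as were 52.7% of all genes. Without library 3 the members' median was -0.34, with 8 of 10 negative beside 49.4% of all genes.

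The mean level of *Mmp27* was 0.962 ± 0.314 CPM under the label WT (n = 5, ± SD) and 0.165 ± 0.0865 CPM under KO (n = 4), which edgeR fitted as -2.51 ± 0.40 on the log2 scale (± standard error, adjusted p = 0.159). It was the only member whose labels did not overlap, and it was lower in labelled KO, as were 2.06% of all genes, while 2.3% were higher without overlap. It passed the filter on low counts only through the libraries labelled WT, where it is high, and its counts in those labelled KO were 12 or fewer, so its p-values support no statement about the members. Without library 3 its log2 fold change was -2.38 with an adjusted p of 0.0249 in edgeR, and 62 genes were called. Over the alternatives in which it was tested, its adjusted p ran from 3.24e-05 with DESeq2 to 0.703 without library 8.

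The other members of the chromosome 9 cluster had lower means in the libraries labelled KO. The mean of *Mmp3* was 12.4 ± 8.69 CPM under WT and 3.11 ± 1.80 CPM under KO, and its fitted log2 difference was -1.99 ± 0.59. For *Mmp12* the means were 3.64 ± 2.41 and 1.24 ± 0.729 CPM. Without library 3, the highest for both genes, the means under WT were 9.195 CPM for *Mmp3* and 2.853 CPM for *Mmp12*. The fitted log2 differences were then -1.56 for *Mmp3* and -1.202 for *Mmp12*. For *Mmp9*, on chromosome 2, the fitted log2 difference was -0.89 ± 0.34. The labels overlapped for these 3 genes, and the edgeR adjusted p was 0.679 for each.

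The log2 fold changes of *Mmp14* (-1.30, standard error 0.58) and *Timp1* (-3.93, standard error 1.92) rested on library 3. Without it they were -0.38 (standard error 0.13) for *Mmp14* and 0.24 (standard error 1.02) for *Timp1*, so that the sign for *Timp1* turned. *Timp4* turned its sign as well, from 0.080 (standard error 0.63) to -0.23 (standard error 0.14) without library 3 and to -0.023 without library 6. *Timp2* was at -0.37 (standard error 0.17), *Timp3* at 0.15 (standard error 0.12) and *Mmp2* at -0.088 (standard error 0.13), and each kept its sign without library 3.

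**Figure D4:**
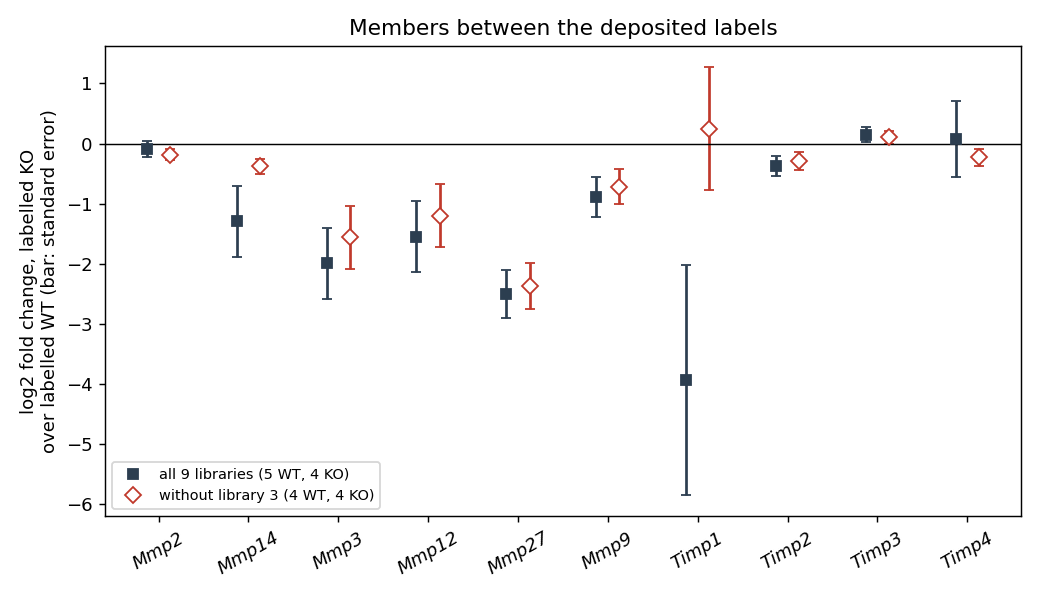
Log2 fold changes of each gene between the labels, KO over WT, from edgeR, with bars for the standard error; squares use all 9 libraries and diamonds leave out library 3. Mmp27 lies at -2.51 and -2.38, while Timp1 moves from -3.93 to 0.24.

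Of the wider family, 8 of 17 other metalloproteinase genes passed the filter, and *Mmp23* and *Mmp19* were higher in all *Vdac2*-low than in all *Vdac2*-high libraries, which is 2 of 8 beside 7.16% of all genes. *Mmp23* was at 7.08 to 10.6 CPM against 5.17 to 5.89 CPM, a ratio of medians of 1.34, and *Mmp19* at 4.67 to 6.56 CPM against 2.53 to 4.13 CPM, a ratio of 1.32. The other 6 overlapped, as did all 13 measured regulators of metalloproteinase activation. Among these regulators *Reck*, a membrane-anchored inhibitor, was at 7.57 to 8.14 CPM in the *Vdac2*-low and 6.81 to 8.52 CPM in the *Vdac2*-high libraries, and *Plau*, the urokinase that makes plasmin, was at 4.53 to 9.85 CPM and 4.11 to 7.69 CPM.

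Of the ADAM and ADAMTS enzymes, relatives that shed membrane proteins or cut proteoglycans and procollagen, 3 of the 18 that passed stood higher without overlap in the *Vdac2*-low libraries, beside 7.16% of all genes. They were *Adam8* (ratio of medians 2.28), *Adamts8* (1.46) and *Adamts2*, a procollagen peptidase (1.39). Of 10 genes for matrix substrates, 4 did so, beside the same 7.16%, namely *Col3a1* (1.77), *Fn1* for fibronectin (1.51), *Vcan* for versican (1.46) and *Col1a2* (1.39). None of the measured genes of these 4 lists was lower without overlap, beside 4.93% of all genes, and none was called between the labels by edgeR. The lists were drawn up with earlier results on these libraries known.

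Markers of other cell types moved with the *Vdac2* groups. The summed level of 6 macrophage markers was 515 to 737 CPM in the *Vdac2*-low and 311 to 481 CPM in the *Vdac2*-high libraries, with 3 of 6 genes (*Cd68*, *Lyz2* and *Adgre1*) without overlap, beside 7.16% of all genes, and all 6 higher within both labels, beside 11.3%. The 4 markers of activated fibroblasts summed to 419 to 844 CPM and 259 to 358 CPM, with *Cthrc1*, *Lox* and *Postn*, 3 of 4, without overlap beside the same 7.16%. In library 3 these sums were 1687 and 3597 CPM. In bulk tissue, more cells of a type and more RNA per cell cannot be told apart, and the part of these cells in the levels of *Mmp3*, *Mmp12*, *Timp1* or *Timp2* was not tested.

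The 6 cardiomyocyte markers summed to 46360 to 52910 CPM in the *Vdac2*-low and 54250 to 63740 CPM in the *Vdac2*-high libraries. These sums were apart although each gene overlapped, and *Myh6*, 1 of 6, was lower within both labels, beside 8.58% of all genes. The 6 fibroblast markers summed to 2437 to 2697 CPM and 1994 to 2508 CPM, with *Tcf21* higher without overlap, beside 7.16% of all genes, and *Dcn*, *Lum* and *Tcf21*, 3 of 6, higher within both labels, beside 11.3%. The 4 endothelial markers summed to 396 to 519.7 CPM and 510.1 to 605.9 CPM, with *Pecam1* lower without overlap, beside 4.93% of all genes, and *Pecam1*, *Kdr* and *Tie1*, 3 of 4, lower within both labels, beside 8.58%. The *Pecam1* ranges nearly touched, at 149.7 to 173.5 CPM and 173.6 to 189.1 CPM. Of 4 markers of smooth muscle and pericytes none stood apart, with 790 to 1006 CPM and 952 to 1123 CPM. Among them *Rgs5*, 1 of 4, was lower within both labels, beside the same 8.58%.

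Neutrophil, lymphocyte, atrial and mesothelial markers were low. The 5 neutrophil markers summed to 2.95 to 25.6 CPM in the *Vdac2*-low and 1.41 to 4.603 CPM in the *Vdac2*-high libraries, and *Ly6g* was at 0 in all *Vdac2*-high libraries and at most 0.0915 CPM elsewhere. The 4 T and B lymphocyte markers summed to 1.34 to 2.19 CPM and 1.21 to 1.35 CPM, with *Cd3e* at most 0.211 CPM. The 4 atrial markers summed to 2.52 to 3.48 CPM and 1.94 to 2.74 CPM. Of the 2 that passed the filter, *Myl4* was higher without overlap, at 1.871 to 2.425 CPM against 1.589 to 1.865 CPM. That is 1 of 2 beside 7.16% of all genes, and *Myl4* was also higher within both labels, beside 11.3%. *Bmp10*, which did not pass, was at 0.132 to 0.214 CPM and 0 to 0.0796 CPM, and *Myl7* and *Sln* overlapped. The 4 mesothelial markers summed to 5.75 to 29.97 CPM and 8.04 to 23.2 CPM.

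Between the labels, leaving library 3 aside, the sums of 2 marker lists stood apart, both lower in KO. Fibroblast markers summed to 2503 to 2697 CPM in WT and 1994 to 2495 CPM in KO, and those of smooth muscle and pericytes to 987 to 1123 CPM in WT and 790 to 961 CPM in KO. By single genes, only *Dcn* of the first list (774.3 to 935.3 against 560.5 to 763.8 CPM) was apart. In the second list it was only *Rgs5* (925.3 to 1059 against 733.2 to 897.5 CPM). The other genes of both lists overlapped, and *Lum* tended the other way, at 99.57 to 120.4 CPM in WT and 117.2 to 174.6 CPM in KO. The share of all genes apart in this comparison was not counted. Neutrophil markers summed to 3.62 to 25.6 CPM in WT and 1.41 to 3.624 CPM in KO, which overlapped in their outermost values. Macrophage markers summed to 457 to 737 CPM in WT and 311 to 540 CPM in KO, and mesothelial markers to 9.22 to 29.97 CPM in WT and 5.75 to 12.95 CPM in KO. Their part in the lower level of *Mmp27* in the libraries labelled KO was not tested.

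For each member, the gene with the most similar profile was found as the highest Pearson correlation of log2(CPM + 0.1) over the 8 libraries other than library 3, out of all genes that passed the filter. These were *Fstl1* for *Timp1* (r = 0.988), *Mgst1* for *Mmp3* (0.985), *Tmem106a* for *Mmp12* (0.987), *Spon1* for *Mmp27* (0.984) and *Slc7a11* for *Timp2* (0.979). For the others they were *Cep192* for *Mmp2* (0.987), *Chaf1b* for *Mmp14* (0.981), *Zfyve16* for *Mmp9* (0.962), *Lmtk2* for *Timp3* (0.988) and *Ppm1g* for *Timp4* (0.991). Each is the best of all these genes over 8 libraries that share label, lane and *Vdac2* level in pairs, and the pairings are a description only.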

How the data were processed

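RNA libraries from the left ventricle, 9 in all, were analysed. The authors sequenced them as 50-base single-end reads from a stranded kit, aligned them to GRCm38 with STAR 2.7.2c and counted them with featureCounts 1.6.3, as the submitters' processing notes name the tools, and deposited raw counts per Ensembl gene without normalization. The sources used here do not give the strand setting, the annotation release or how multiply aligned reads were handled. Where genes overlap on opposite strands, their reads cannot be told apart unless strand was used. Symbols were found for 52403 of 52636 genes, and coordinates are from GENCODE M21 (GRCm38).

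The members, lists and rules were chosen with earlier results of these data known. Groups are the deposited labels (5 WT, 4 KO), and libraries were also described by *Vdac2* level (under 100 and over 300 CPM) without a test. The labels name no animals, so p-values measure only the spread between these libraries, the closest pair of which within a label differed by a chi-square per degree of freedom of 7.35. CPM were counts scaled by the library size after TMM normalization. Labels were compared with edgeR 4.0.16 (R 4.3.3) by filterByExpr, TMM, robust quasi-likelihood F-tests and Benjamini-Hochberg adjustment over all 16322 genes, called at an adjusted p under 0.05, and a standard error is the size of the log2 fold change over the root of its F statistic. The script was tested on simulated data. Promoter windows are the 250 bases before RefSeq starts.

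All 10 members are named, with *Vdac2*, for each list up to 4 genes without overlap by *Vdac2* level with the largest ratio, and for each member the gene of highest correlation. *Reck*, *Plau*, *Mmp8*, *Mmp15*, *Mmp10*, *Mmp13*, the overlapping genes and the markers named were chosen after their values were seen. Alternatives were RLE and upper-quartile normalization, every gene with a count tested, a minimum of 10 counts per library, DESeq2 1.42.0, mitochondrial genes left out, each label alone, library 3 among the *Vdac2*-low, means of log2 CPM, shares without length, and each library left out in turn. Lane coincides with label, so no batch term was fitted. Depth was 27345052 to 44673988 counts per library, and the floor of 3 counts covers counting error only.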

Additional observations from a re-analysis of the deposited data

Results flagged for a closer look

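Library 3, labelled WT, lay far from the other 4 libraries of its label for 2 members. *Timp1* was at 413 CPM there and the next highest library labelled WT was at 8.18 CPM, so that the gap was 0.983 of the range, over the limit of 0.71 for 5 samples. *Mmp14* was at 61.3 CPM there against 12.9 CPM in the next highest library, a gap of 0.922 of the range. The 10 members were examined in both labels, 20 groups in all. For independent groups of normally distributed values, chance alone singles out about 1 in 20. The groups of a label share the same libraries and both flags came from library 3, so that rate cannot be applied to them. In the same library the activated fibroblast markers summed to 3597 CPM against 258.5 to 844.1 CPM in the other 8, the macrophage markers to 1687 CPM and the cardiomyocyte markers to 13110 CPM. Their part in the levels of *Timp1* and *Mmp14* was not tested.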

How the results depend on the processing

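Between the labels, edgeR called 9 genes, 9 with RLE, 8 with upper-quartile normalization and 11 without a low-count filter. It called 0 with at least 10 counts in every library (875 at an unadjusted p under 0.05; *Mmp27* was not tested there), DESeq2 called 63, and leaving out single libraries gave 5 to 62, with 62 without library 3 and 5 without library 1, 2 or 4. No member was called, except *Mmp27* by DESeq2 (log2 fold change -2.53) and without library 3 (-2.38), which is 1 member each, so that leaving out single libraries gave 0 to 1. In edgeR its adjusted p ran from 0.0249 without library 3 to 0.703 without library 8. With single libraries left out, the log2 fold change ran from -5.03 to 0.24 for *Timp1*, its sign turning without library 3, and from -0.23 to 0.24 for *Timp4*, its sign turning without library 3 (-0.23) or library 6 (-0.023). By *Vdac2* level, 1 member stood clear as reported, with RLE, without mitochondrial genes and with library 3 added, 7 within libraries labelled WT (beside 24.5% of all genes higher and 23.3% lower), 7 within those labelled KO, 6 higher and 1 lower (beside 20.7% and 17.1%), and 1 to 3 with single libraries left out (beside 8.77% to 9.91% and 6.11% to 8.3%). Without division by length, the median share in the *Vdac2*-low libraries was 2.702% for *Timp1* (16.1% with it) and 59.1% for *Timp3* (37.0%), and the groups then overlapped for *Timp3* and *Timp4* but not for *Timp2*. The causes were not tested. No paired analysis was possible because the labels name no animals or pairs. Depth limits *Mmp27* most, at 3 to 12 counts in the libraries labelled KO. Levels of RNA were measured, and the activity of the enzymes was not.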
